A study of Rattus norvegicus with 29 samples.

Results

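Messenger RNA of gentamicin-exposed primary rat renal proximal tubule epithelial cells was compared between 24 h and 6 h of exposure, taking the 3 libraries labelled gentamicin at 24 h and the 3 labelled gentamicin at 6 h, 6 of the 29 libraries of the series. The members were chosen by treatment and time label alone. Untreated cultures of the same cell type, 2 libraries at 6 h and 3 at 24 h, give the change that time in culture brings without the drug, and acetaminophen, TCDD (2,3,7,8-tetrachlorodibenzodioxin) and trichloroethylene cultures, 3 libraries each at both times, give 3 further time changes. The sources used here give no strain, sex or age of the rats, no doses and no vehicles. The labels do not say what separates the replicates, whether animals, cultures or only library preparations. The p-values therefore measure the spread between these libraries, which may be technical.

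Gentamicin is an aminoglycoside antibiotic that stops bacterial protein synthesis and is toxic to the kidney. Proximal tubule cells reabsorb most of the solutes and small proteins that the glomerulus filters. They take the drug up from the lumen by endocytosis through the receptors megalin and cubilin, and it then collects in lysosomes, where it disturbs the breakdown of phospholipids.

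The tables give Ensembl transcript identifiers without gene names. None of the 28420 identifiers (0) matched the reference table used here, so the results describe sets of transcripts, with 4 single ones given under their identifiers, and the cell type could not be checked against marker genes. The 11 gentamicin and control libraries held between 8513263 and 11156296 estimated counts. Replicates were not copies of each other: the chi-square of their counts was between 3.07 and 13.8 per degree of freedom. Replicates 1 and 2 gave 4.19 with gentamicin at 6 h, 3.55 with gentamicin at 24 h and 4.55 in control at 24 h. Pairs with replicate 3 in these groups gave 8.04 to 13.8, and what sets replicate 3 apart was not tested. In bulk RNA, fewer cells that make a transcript and less of it per cell cannot be told apart.

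The direct comparison asked how the transcriptome of gentamicin cultures moved from 6 h to 24 h. Of 15990 transcripts tested, 8283 changed, which is 51.8% of those tested: 4047 rose (25.3%) and 4236 fell (26.5%; edgeR quasi-likelihood F test, Benjamini-Hochberg adjusted p under 0.05). The median log2 change was 0.84 among the rises and -0.75 among the falls, beside -0.03 over all transcripts tested. The large changes were mostly rises. More than 2-fold rises numbered 1675 and falls of that size 1314. Beyond 4-fold there were 541 rises and 128 falls, and beyond 8-fold 215 rises and 30 falls. A log2 change had a median standard error (SE) of 0.16. Rises made up 48.9% of the calls, and 33.4% when libraries were scaled by total counts, where the median log2 change of all transcripts was -0.23. They were 54.3% with DESeq2 and 54.6% with median-of-ratios factors. The balance of rises and falls thus depends on the scale, and changes here are relative to a scale that sets the bulk of transcripts near 0.

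The share of transcripts that changed depended on abundance. Among tested transcripts averaging over 10 and up to 100 TPM, the authors' level per transcript length and library total, in the 6 gentamicin libraries, 4550 of 7405 changed (61.4%), and above 100 TPM 963 of 1687 (57.1%). Between 1 and 10 TPM, 2324 of 4728 did (49.2%), with 891 rises and 1433 falls. At or below 1 TPM only 446 of 2114 passed (21.1%). There the median SE was 0.76, against 0.12 above 100 TPM, so small changes of rare transcripts were not detectable at this depth. Above 100 TPM rises outnumbered falls, 577 to 386.

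Of the 100 transcripts with the highest mean TPM at 6 h of gentamicin, 31 had fallen and 11 had risen by 24 h, beside 26.5% and 25.3% of all tested transcripts, and 76 were still among the top 100. Choosing the list on the 6 h level favours falls. Between the untreated groups, 88 of the top 100 were shared. The number of transcripts at 1 TPM or more hardly moved: it was 13881, 13760 and 14012 in replicates 1, 2 and 3 at 6 h, and 14146, 14137 and 13797 at 24 h. The groups overlap on this measure.

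Few transcripts switched on or off outright. In 18 cases a transcript without any count in the 3 libraries at 6 h had at least 10 counts in each of the 3 at 24 h, and in 5 cases the reverse held. Of the 18, 17 were tested and 17 were called in the direct comparison, beside 51.8% of all tested transcripts. The choice was made on the same libraries and favours that call, so the count is a description. Setting the empty libraries at 3 counts each, these 17 rose at least 4.2-fold at the least and at least 94-fold at the most, with a median bound of 7.44-fold. The most abundant of the 18 averaged 85.4 TPM at 24 h. Only 6 of the 18 were also without counts in all 5 control libraries, and 2 of the 18 reached at least 10 counts in each TCDD library at 24 h, against 0 for acetaminophen, trichloroethylene and control. Untreated cultures gained 6 and lost 9 transcripts by the same measure, with 2 libraries at 6 h.

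Untreated cultures also changed with time, which the gentamicin change was set against. From 6 h to 24 h, 3985 control transcripts changed (24.9% of those tested): 1973 rose (12.3%) and 2012 fell (12.6%), with 380 rises and 207 falls of more than 2-fold. The smaller control group at 6 h limits this count: it was 1633 without control replicate 2 at 6 h, 1804 without replicate 3 at 6 h and 2116 without control replicate 1 at 24 h. On log2(TPM + 1), 68.8% of the control calls were rises, against 49.5% in the main test. Over all tested transcripts, the interquartile range of the log2 change was 1.01 with gentamicin and 0.66 in control. Mean fragment length in the control libraries was longer at 24 h, at 278.5 ± 9.6 bases (SD, n = 3) beside 260 ± 4.31 (n = 2) at 6 h, while the gentamicin libraries had 261.7 ± 2.65 at 24 h beside 254 ± 6.93 at 6 h (n = 3 each). With fragment length as a covariate the control count was 2262 and the gentamicin count 8533.

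**Figure D1:**
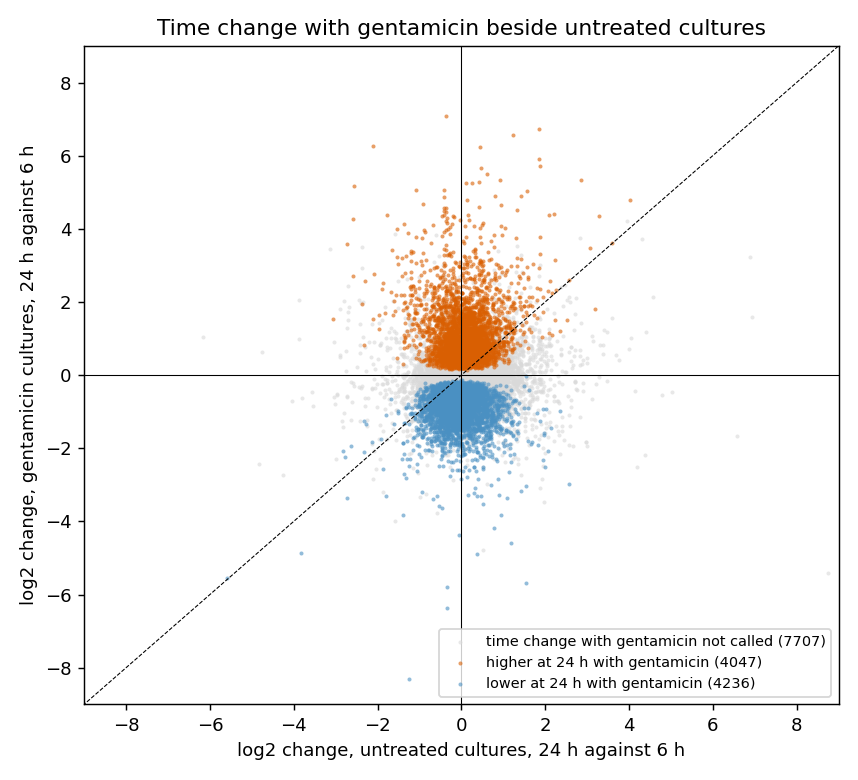
Each point is a tested transcript: the horizontal axis is its log2 change from 6 h to 24 h in untreated cultures, the vertical axis the same in gentamicin cultures, colours mark the 4047 rises and 4236 falls called with gentamicin, and the dashed line marks equal change. The cloud is taller than it is wide, and coloured points lie on both sides of the vertical zero line; 447 transcripts at or below 3 counts in both groups of a comparison are not drawn.

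The gentamicin and control time changes rest on separate libraries. Across 15543 transcripts, which are not independent replicates, they correlated at r = 0.07. Transcripts changed in the same direction in both numbered 1484, which is 17.9% of the gentamicin calls and 37.2% of the control calls, and 923 went in opposite directions, 11.1% and 23.2% of the same lists. Of the 1973 transcripts that rose with time in control, 678 also rose with gentamicin, 489 fell, and 806 passed in neither direction. Of the 2012 that fell in control, 806 fell with gentamicin and 434 rose. Over all tested transcripts 25.3% rose and 26.5% fell with gentamicin, so changes in the control direction were more frequent in both lists than over all transcripts.

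Whether the time change differed between gentamicin and untreated cultures was tested by the interaction of treatment and time, which equally tests whether the response to gentamicin differs between 6 h and 24 h. It passed for 6266 transcripts (39.2% of those tested), 2997 with a higher (18.7%) and 3269 with a lower change (20.4%) under gentamicin. The median SE of this difference was 0.24 on the log2 scale. Higher changes made up 47.8% of the calls. That share was 29.2% under total-count scaling, 31% on log2(TPM + 1), 53.8% with DESeq2 and 53.6% with median-of-ratios factors.

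How the early response developed was then read from 3 calls per transcript: against control at 6 h, against control at 24 h, and the interaction. The control-based calls numbered 2113 at 6 h (13.2% of those tested) and 9525 at 24 h (59.6%), and the 2 sets of libraries have none in common. A transcript called at both times in one direction was named grown where the interaction passed in that direction, kept where it did not pass, and shrunk where it passed against it. A transcript called in opposite directions was named reversed. One called at 6 h only was named lost, and one called at 24 h only new, where the interaction also passed in the matching direction. By these rules 926 transcripts had grown, 669 were kept, 18 had shrunk, 156 were reversed, 187 were lost and 4791 were new. A further 157 had only the 6 h call and 2965 only the 24 h call, and their effects were not shown to differ between the times.

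These sizes lean on the 2 controls at 6 h. Without control replicate 2 at 6 h there were 426 grown, 296 kept, 9 shrunk, 54 reversed and 72 lost transcripts. Without control replicate 3 the counts were 452, 350, 8, 48 and 81. Without gentamicin replicate 3 at 6 h, 87 were reversed and 110 lost. The shrunk count also fell to between 6 and 11 without control replicate 2 or 3 at 24 h or any 1 gentamicin library of that time. Selection by the 6 h call favours transcripts whose 6 h change was overestimated, and so favours lost and reversed calls.

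**Figure D2:**
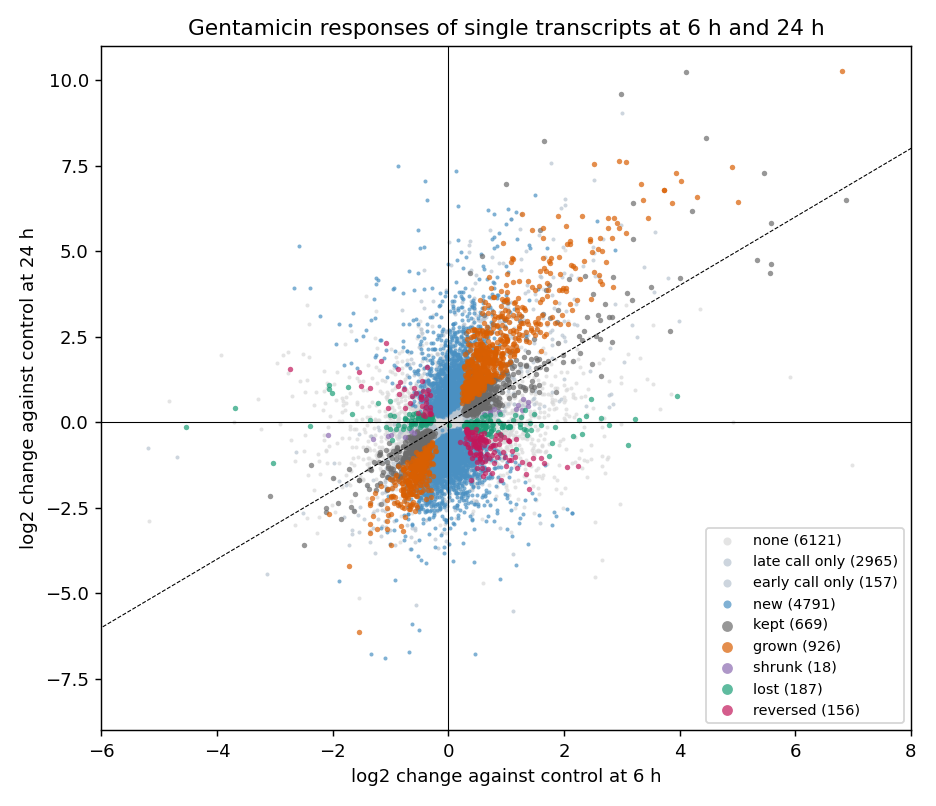
Each point is a tested transcript: the horizontal axis is its log2 change against control at 6 h, the vertical axis at 24 h, colours mark the classes with their sizes, and the dashed line marks equal change. The 926 grown transcripts lie farther from 0 vertically than horizontally, and the 4791 new ones spread along the vertical axis; 384 transcripts at or below 3 counts in both groups of a comparison are not drawn.

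The 627 transcripts that had grown upward had a median log2 change against control of 0.66 at 6 h and 1.87 at 24 h. Their median level relative to the mean of the controls at 6 h, on the log2 scale, was 0.66, 0.67 and 0.62 in gentamicin replicates 1, 2 and 3 at 6 h, and 1.92, 1.92 and 1.95 at 24 h. In the 24 h controls it was -0.04, 0.01 and -0.02. All 3 late gentamicin libraries thus stood above all early ones, while the untreated level stayed at its start. By 24 h, 283 of the 627 were more than 4-fold and 132 more than 8-fold above control. These values come from the calls that formed the class and are a description.

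The upward grown transcripts came to hold a larger share of the estimated counts. They took 3.82% and 3.9% of all counts in the controls at 6 h, and 6.64%, 6.68% and 6.29% in gentamicin replicates 1 to 3 at 6 h. At 24 h they took 15.6%, 15.8% and 16.5% with gentamicin against 3.77%, 3.84% and 3.62% in control. The single most abundant member accounted for 1.03% of counts at 24 h of gentamicin. The top 10 of each group held 1.49% at 6 h and 4.85% at 24 h of gentamicin, and the remaining members 5.05% and 11.1%. Both the top 10 and the rest thus gained, which the calls that formed the class favour.

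Among them, ENSRNOT00000065558 (5729 bases) had the smallest p in the direct comparison. Its TPM was 4.36, 4.55 and 4.04 in gentamicin replicates 1 to 3 at 6 h and 83.1, 81.5 and 64.4 at 24 h. The controls had 2.04 and 2.07 at 6 h and 2.33, 2.62 and 1.75 at 24 h. Every gentamicin library was above every control, and the late ones were far above the early ones. From 6 h to 24 h it rose 19.1-fold, or by 4.25 ± 0.11 on the log2 scale (SE; edgeR adjusted p = 4.1e-19). The control change was -0.03 ± 0.14 (adjusted p = 0.91). Acetaminophen cultures also showed a rise, from 1.23 ± 0.19 TPM to 8.28 ± 1.41 TPM (SD, n = 3 each). By the edgeR fit, which scales libraries otherwise than TPM, that rise was 2.37 ± 0.12 on the log2 scale (SE; adjusted p = 1e-13). The gentamicin rise exceeded it by 1.88 ± 0.17 (SE; edgeR adjusted p = 1.5e-09). Over the same interval it rose by 0.51 ± 0.12 in trichloroethylene cultures (adjusted p = 0.00088) and fell by 0.74 ± 0.13 with TCDD (adjusted p = 2.7e-05).

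Downward growth involved 299 transcripts, with a median log2 change against control of -0.56 at 6 h and -1.5 at 24 h. Their share of counts was 3.52%, 3.48% and 3.8% in the gentamicin libraries at 6 h and 1.78%, 1.83% and 1.56% at 24 h, against 6.42%, 6.24% and 6.22% in the 24 h controls. Every late gentamicin library lay below every early one, which follows from the calls that formed the class and is a description. At control levels these were fairly abundant messages, with a median of 29.1 TPM in the 6 h controls against 12.2 TPM over all tested transcripts. This was not particular to downward growth, as all transcripts called lower at 6 h had a median of 29.3 TPM there. The 6 h call uses those same controls, which favours high levels among early falls. Only 62 of the 299 were more than 4-fold below control at 24 h, and 8 more than 8-fold. Of all grown transcripts 67.7% pointed up, and of all 6 h calls 63.1% did. Under total-count scaling 57.7% of the grown transcripts pointed up, and on log2(TPM + 1) 78%, beside 64.6% and 80.6% of the 6 h calls.

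The late change scaled with the early one. Of 416 early rises of up to 0.5 on the log2 scale, 192 had grown, and their group median moved from 0.4 at 6 h to 0.69 at 24 h. The 580 early rises between 0.5 and 1 moved from 0.66 to 1.06, the 233 between 1 and 2 from 1.31 to 2.08, and the 104 above 2 from 2.68 to 4.29. Of those 104, 88 were also called above control at 24 h and 2 below, beside 29.1% and 30.5% of all tested transcripts. Early falls showed the same order up to a change of -2: the 366 between -0.5 and -1 moved from -0.65 to -1.11, and the 75 between -1 and -2 from -1.21 to -1.45. The 17 larger falls moved the other way, from -2.4 to -0.76. Of these, 7 were called lower at 24 h, beside 30.5% of all tested transcripts.

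The late response was nevertheless mostly made of transcripts without an early call. Of 930 transcripts more than 4-fold above control at 24 h, 338 had been called higher at 6 h (36.3%, against 8.34% of all tested). Another 337 were new, and 254 had only the 24 h call, so their effect was not shown to differ between the times. The median 6 h change of the 930 was 0.73. Of 418 more than 4-fold below control, 72 had been called lower (17.2%, against 4.88% of all tested), 247 were new and 99 had only the 24 h call. The median 6 h change of the 418 was -0.37. A missing call at 6 h, with 2 controls, does not show that a transcript was unchanged then.

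The new class held 2170 rises and 2621 falls. The rises had a median log2 change against control of 0.05 at 6 h and 0.94 at 24 h, and the falls of -0.03 and -0.99. The class requires no call at 6 h, which favours small early changes. The 6 h change was within 0.5 of 0 on the log2 scale in 1984 of the 2170 and 2410 of the 2621. Of all 15990 tested transcripts 12083 were within that range. An unadjusted p under 0.05 at 6 h was found for 352 of the rises and 438 of the falls, beside 4062 of all tested transcripts. The 6 h change then had the later direction in 269 of these rises and 274 of these falls. More than 2-fold changes numbered 1007 among the rises and 1295 among the falls, and more than 8-fold changes 135 and 39. Rises made up 45.3% of the class, against 25.6% under total-count scaling and 27.4% on log2(TPM + 1). They were 52.4% with DESeq2, 51.8% with median-of-ratios factors and 51% with only the compared groups, so the more frequent direction depends on the processing.

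Per library, the new rises stood at a median log2 level of 0.06, 0.07 and 0.01 relative to the 6 h controls in the gentamicin libraries at 6 h, and at 0.76, 0.75 and 0.78 at 24 h. The 24 h controls stood at -0.26, -0.19 and -0.2. For the new falls the gentamicin medians were -0.04, -0.05 and 0.01 at 6 h and -0.68, -0.68 and -0.84 at 24 h, with 0.28, 0.24 and 0.21 in the 24 h controls. In both directions the gap at 24 h was thus made of a move in the gentamicin cultures and a smaller move the other way in the untreated ones, a pattern that calls made on these same libraries favour. The direct comparison, which shares the gentamicin libraries with these calls, gave median time changes of 0.73 and -0.76, and the control comparison -0.23 and 0.24.

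The new rises took 19.7%, 19.9% and 19.6% of counts at 6 h of gentamicin and 28.3%, 27.8% and 28.6% at 24 h, against 16.9%, 17.4% and 17.3% in the 24 h controls. The new falls went from 16.7%, 16.8% and 17.6% to 9.65%, 9.8% and 8.6%, with 21.4%, 20.7% and 19.9% in the controls. Together with the upward grown class, the new rises made up the main gains in the late libraries. Both classes were formed by calls on these same libraries that favour such gains, so the shares are a description.

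**Figure D3:**
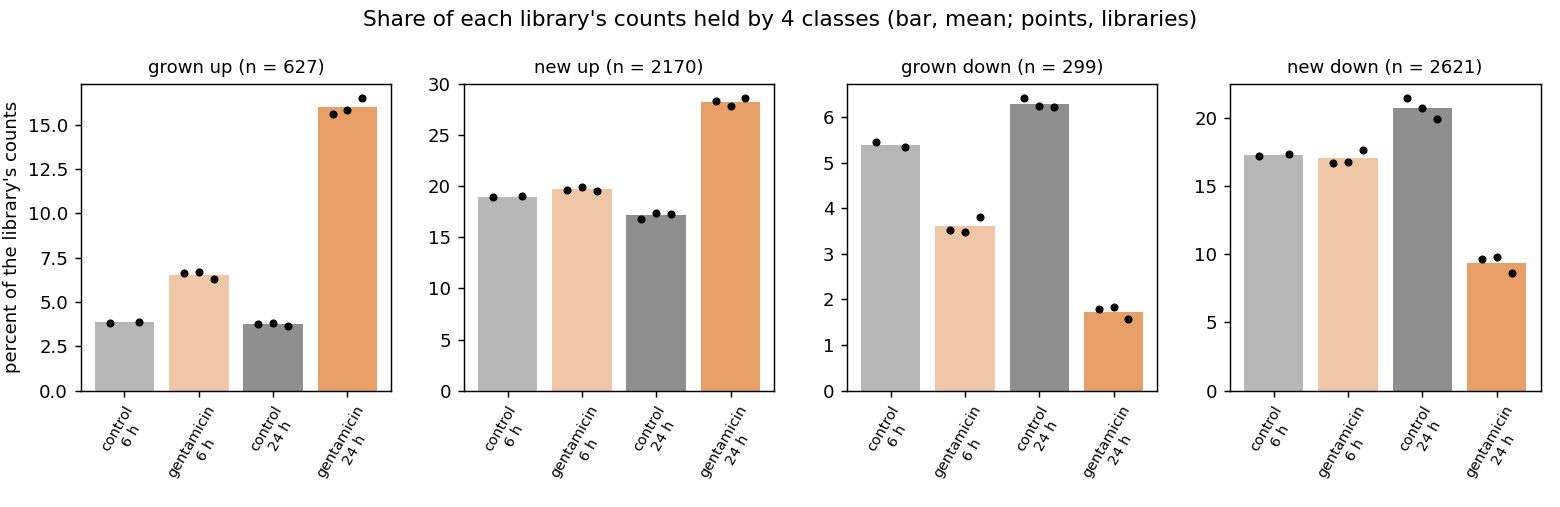
The vertical axis is the percentage of a library's estimated counts held by the transcripts of a class, for the controls and gentamicin libraries at 6 h and 24 h; bars are group means and points single libraries. With gentamicin at 24 h the upward grown transcripts lie between 15.6% and 16.5%, against 3.62% to 3.84% in the controls of that time.

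ENSRNOT00000049683 (784 bases), a very abundant message, had the smallest p in the direct comparison among the new falls. It stood at 6483, 7216 and 7618 TPM in gentamicin replicates 1 to 3 at 6 h, close to the 7357 and 7705 TPM of the controls. At 24 h it stood at 1695, 1791 and 1420 TPM with gentamicin and at 13011, 11486 and 8624 TPM in control. The 3 late gentamicin libraries lay below every other one. Its time change with gentamicin was -2.03 ± 0.11 on the log2 scale (SE; edgeR adjusted p = 2.6e-13), a 4.07-fold fall, and in control 0.35 ± 0.12 (adjusted p = 0.034). Set against the time change of TCDD cultures, that of gentamicin cultures differed by -1.56 ± 0.15 on the log2 scale (SE; edgeR adjusted p = 5.2e-09). The time change was -0.46 ± 0.11 with TCDD, -0.31 ± 0.11 with trichloroethylene and -0.23 ± 0.11 with acetaminophen (adjusted p = 0.00056, 0.018 and 0.087).

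Reversed transcripts were few, and most of them turned downward: 117 were above control at 6 h and below it at 24 h, and 39 the opposite. They were drawn from unequal numbers, as the 6 h calls held 1333 rises and 780 falls. Upward reversals were 25% of the class, and 12.6% under total-count scaling, 38.7% with DESeq2, 39.6% with median-of-ratios factors and 9.03% on log2(TPM + 1). For the 117 the median log2 change against control was 0.56 at 6 h and -0.67 at 24 h. Their level relative to the 6 h controls fell from 0.53, 0.53 and 0.63 in the early gentamicin libraries to -0.17, -0.08 and -0.34 in the late ones, while the controls came to 0.59, 0.48 and 0.43. The 24 h controls stood at about the level that gentamicin cultures had shown at 6 h, a pattern that calls made on these same libraries favour. For the 39 upward reversals the gentamicin medians were -0.45, -0.44 and -0.58 at 6 h and 0.37, 0.33 and 0.42 at 24 h, with -0.33, -0.28 and -0.31 in the 24 h controls. No downward reversal (0 of 117) and 1 of the 39 upward ones exceeded 4-fold at 24 h.

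ENSRNOT00000021037 (1522 bases) was first among the downward reversals. Its TPM was 22, 19.7 and 20.2 in gentamicin replicates 1 to 3 at 6 h, above the controls at 10.7 and 13.9. At 24 h it was 4.95, 4.32 and 4.45, below the controls at 15.2, 16 and 11.6. The groups did not overlap at either time. It rose against control by 0.63 ± 0.13 at 6 h and fell by 1.48 ± 0.13 at 24 h on the log2 scale (SE; edgeR adjusted p = 0.0013 and 4e-10), and from 6 h to 24 h it fell by 2.06 ± 0.13 (adjusted p = 1.6e-12). Acetaminophen cultures fell as well, from 37.3 ± 0.656 to 25.4 ± 4.21 TPM (SD, n = 3 each). By the edgeR fit, which scales libraries otherwise than TPM, their log2 change was -0.94 ± 0.11 (SE; adjusted p = 1.2e-07). Their fall was smaller: the gentamicin change minus the acetaminophen change was -1.12 ± 0.17 on the log2 scale (SE; edgeR adjusted p = 4.8e-06). TCDD and trichloroethylene cultures rose over the same interval, by 0.76 ± 0.12 and 0.66 ± 0.12 on the log2 scale (SE; edgeR adjusted p = 4.4e-06 and 5.2e-05).

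ENSRNOT00000045827 (7871 bases) was first among the upward reversals. It had 102, 102 and 107 TPM in gentamicin replicates 1 to 3 at 6 h, below the controls at 125 and 135, and 354, 364 and 293 TPM at 24 h, above the controls at 171, 173 and 137. The early step was small, at -0.46 ± 0.12 on the log2 scale (SE; edgeR adjusted p = 0.0087). The late one was 1.2 ± 0.1 (adjusted p = 3.7e-10), and the rise between the times was 1.81 ± 0.11 (adjusted p = 7.8e-13), against 0.15 ± 0.12 in control (adjusted p = 0.35). TCDD cultures went the other way over the same interval, from 169 ± 15.2 to 66.7 ± 22.3 TPM (SD, n = 3 each). Their log2 change of -1.01 had an SE of 0.1 and an edgeR adjusted p of 7.4e-09. The change was -0.36 ± 0.1 with trichloroethylene and -0.18 ± 0.1 with acetaminophen (adjusted p = 0.0057 and 0.18).

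**Figure D4:**
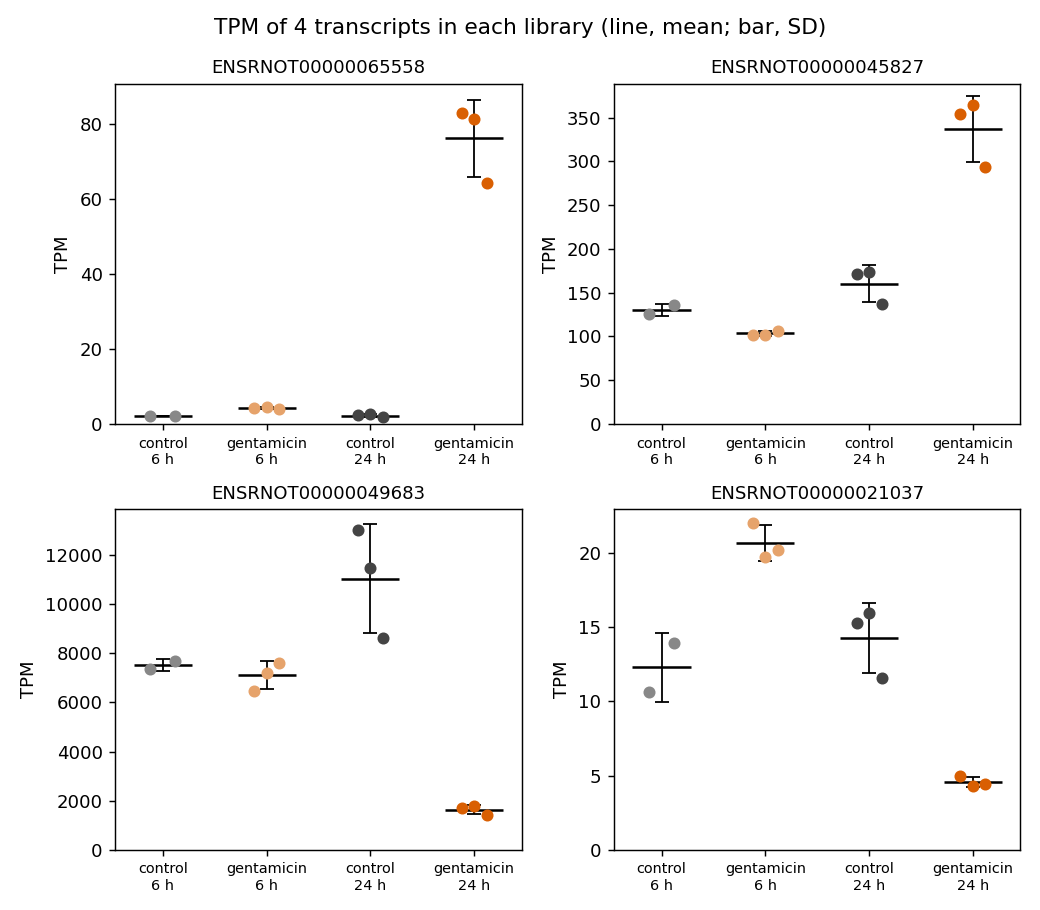
TPM (vertical axis, from 0) of the 4 named transcripts in each control and gentamicin library at 6 h and 24 h; points are libraries, lines group means and bars the SD (n = 2 for control at 6 h, otherwise n = 3). ENSRNOT00000065558 lies between 64.4 and 83.1 TPM at 24 h of gentamicin and below 5 TPM in every other library shown.

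Lost transcripts comprised 108 early rises and 79 early falls. The rises stood at 0.65, 0.65 and 0.72 relative to the 6 h controls in the early gentamicin libraries and at 0.32, 0.32 and 0.21 in the late ones, where the controls had come to 0.43, 0.31 and 0.33. The early falls stood at -0.51, -0.5 and -0.56, then at -0.33, -0.36 and -0.24, with the 24 h controls at -0.46, -0.36 and -0.33. At 24 h both cultures thus lay between the early levels, a pattern that calls made on these same libraries favour. In the direct comparison 58 of the 108 early rises had fallen and 40 of the 79 early falls had risen by 24 h, beside 26.5% and 25.3% of all tested transcripts. That comparison shares the 6 h gentamicin libraries with the calls that formed the class, so these counts are a description. Early rises were 57.8% of the lost class, but 81.2% under total-count scaling and 87% on log2(TPM + 1). Of all 6 h calls they were 63.1%, 64.6% and 80.6%.

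The 669 kept transcripts, 381 up and 288 down, had median log2 changes against control of 0.63 and -0.57 at 6 h and of 0.77 and -0.77 at 24 h. Their interaction did not pass, which with a median SE of 0.24 does not show that the effect was constant. Rises were 57% of the kept class, 77.9% on log2(TPM + 1) and 49.9% with DESeq2. Of all 6 h calls they were 63.1%, 80.6% and 57.2%.

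**Figure D5:**
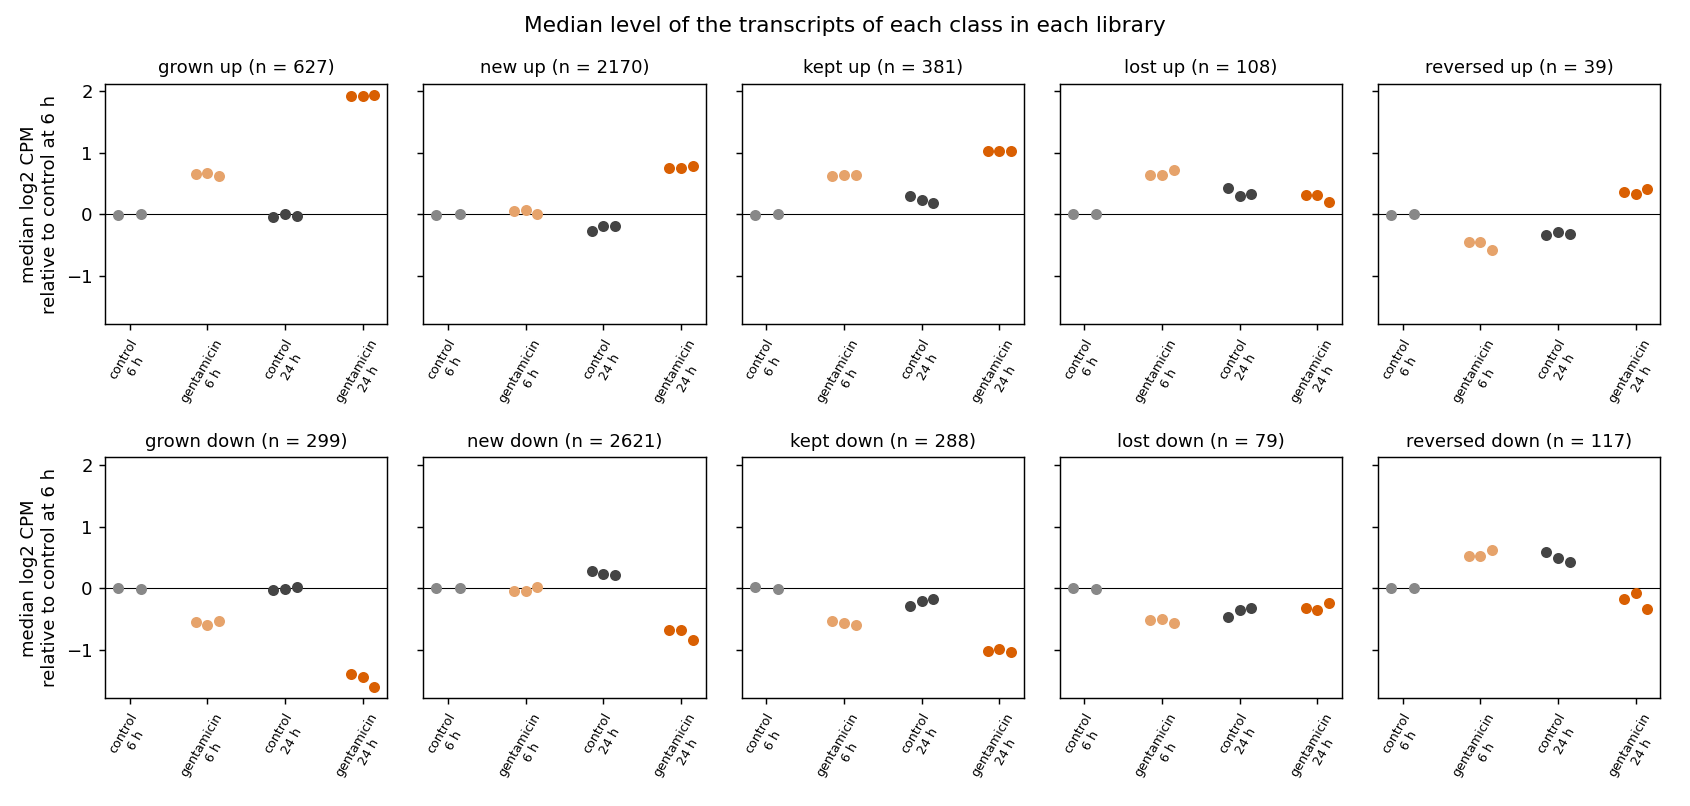
The vertical axis is the median log2 level (CPM) of a class's transcripts relative to the mean of the controls at 6 h; each point is a library, grouped by treatment and time, and n is the number of transcripts. Upward grown transcripts stand between 0.62 and 0.67 at 6 h and between 1.92 and 1.95 at 24 h of gentamicin. In the lost classes, which require no call at 24 h, the late gentamicin libraries and the 24 h controls lie close together.

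The classes differed in transcript length, which the calls did not use directly. The median length was 2430 bases for upward grown, 2791 for downward reversed and 2905 for upward lost transcripts, against 2019 over all tested transcripts. Downward lost and downward kept transcripts were shorter, at 1817 and 1842 bases. In the 6 h controls the upward lost and downward reversed transcripts had median levels of 7.07 and 8.19 TPM, and the downward lost and upward reversed 38.2 and 31.2 TPM. The 6 h call uses those same controls, which favours low levels among early rises and high levels among early falls. Longer transcripts draw more counts at a given TPM and are called more easily, and the part of length in these differences was not tested.

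The time changes in the other cultures use none of the gentamicin or control libraries and so give a separate reading of the classes. In TCDD cultures 63.7% of all tested transcripts changed with time: 32.5% rose and 31.3% fell. Of the 2170 new rises, 998 rose and 541 fell there; of the 2621 new falls, 566 rose and 1316 fell. Of the 627 upward grown transcripts 349 rose and 133 fell in TCDD cultures, and of the 299 downward grown 44 rose and 204 fell. In acetaminophen cultures, where 42.8% of tested transcripts changed (21.3% rose and 21.5% fell), the new rises split into 536 that rose and 586 that fell, and the new falls into 628 and 615. There the upward grown split into 195 that rose and 166 that fell, and the downward grown into 41 and 128. In trichloroethylene cultures, with 47.5% changed (24.5% and 23.1%), the new rises split into 584 that rose and 666 that fell, the new falls into 716 and 656, the upward grown into 287 and 96, and the downward grown into 54 and 138. Over all tested transcripts the gentamicin time change correlated with that of TCDD at r = 0.27, of acetaminophen at 0.18 and of trichloroethylene at 0.16. These correlations are across transcripts, which are not independent replicates.

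Whether the gentamicin time change itself differed from those of other compounds was tested by contrasts of the time changes. It differed from that of acetaminophen in 7263 transcripts (45.4% of those tested) and from that of TCDD in 8879 (55.5%). Against acetaminophen, 3606 changes were higher (22.6%) and 3657 lower (22.9%) with gentamicin, and against TCDD 4514 were higher (28.2%) and 4365 lower (27.3%). Higher changes were 49.6% and 50.8% of these calls. For acetaminophen they were 21.5% under total-count scaling, 22.5% on log2(TPM + 1) and 55% with DESeq2. For TCDD they were 43.6% under total-count scaling, 65% on log2(TPM + 1) and 53.7% with DESeq2. Of the 627 upward grown transcripts, 525 had a higher time change with gentamicin than with acetaminophen, and 405 a higher one than with TCDD. Of all tested transcripts 22.6% and 28.2% did. A higher change can also come from a fall in the other cultures. These contrasts share the gentamicin libraries with the calls that formed the class, so the counts are a description.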

How the data were processed

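Cells were lysed in TRIzol, and the RNA was cleared of DNA and made into Illumina libraries, per the labels' protocols. The authors quantified transcripts with kallisto 0.43, per the submitters' processing notes. Each deposited table gives estimated counts, TPM values, and length and effective length for 28420 transcripts, per the file headers. These expected counts were deposited unrounded, and 20% of the values were not whole. TPM, as deposited, scales them to effective length and library total. For the transcript set, strand setting and trimming, the tables and labels used here say nothing. The authors' tool divided reads between similar transcripts, so a change may be a shift among them.

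Counts were rounded. filterByExpr (minimum count 10, 10 groups) kept 15990 transcripts and 99.95% of counts. edgeR 4.0.16 in R 4.3.3 fitted 1 robust quasi-likelihood model over 29 libraries with TMM factors and 19 residual degrees of freedom. An SE is the log2 change divided by the square root of F. In medians and counts by size, a group without counts was set at 3 counts per library. Fragment length is length minus effective length, averaged where length was 1000 or more. Steps were tested on simulated counts.

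The members, classes and lists were chosen with earlier results of these data known. Lists and names that need gene symbols were not used here. The 4 identifiers have the smallest p in the direct comparison among upward grown, upward reversed, new falling and downward reversed transcripts with at least 3 counts in all 11 gentamicin and control libraries. The alternatives were DESeq2 1.42.0, limma 3.58.1 on log2(TPM + 1), other scalings and filters, a replicate block, fewer groups, no robust step, a fragment length covariate and leaving out single libraries.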

Additional observations from a re-analysis of the deposited data

Results flagged for a closer look

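For all 4 named transcripts the change from 6 h to 24 h differed between gentamicin and untreated cultures by the test of the interaction. On the log2 scale the gentamicin change minus the control change was 4.28 for ENSRNOT00000065558 (edgeR adjusted p = 1.1e-14), 1.66 for ENSRNOT00000045827 (8.6e-09), -2.38 for ENSRNOT00000049683 (8.1e-11) and -2.11 for ENSRNOT00000021037 (2.6e-09). The rule that picked them required an interaction or opposite calls, so this difference is part of their choice. The 3 gentamicin libraries at 24 h lay on the same side of the 3 at 6 h for each transcript.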

How the results depend on the processing

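Over 21 alternatives, 247 of the 273 recomputed counts stayed within 1.5 times their main value, and the 4 named transcripts kept direction and call in 84 of 84 fits of the direct comparison. Without a low-count filter, where 23269 transcripts were tested, 101 were reversed. With the fragment length covariate the control time change had 2262 calls, 1006 transcripts were kept and 306 lost; the cause was not tested. Leaving out 1 library gave 881 to 2196 calls at 6 h against control, 1633 to 4304 for control over time, 426 to 908 grown, 296 to 738 kept, 6 to 17 shrunk, 48 to 156 reversed and 72 to 211 lost transcripts; where 1 control is left, its spread is taken from the other groups. The direct comparison had between 7577 and 8340. With a replicate block it had 8182 calls and the interaction 6083. Same-numbered gentamicin libraries at the 2 times did not deviate together (r = -0.005, -0.07 and -0.09). With 3 libraries per group these values cannot decide whether the numbers pair them. Of the main new transcripts, 83.2% kept class and direction with total counts and 79% on log2(TPM + 1); of the lost ones 39.6% and 46% did. Depth limits the calls at or below 1 TPM.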
